A study of Mus musculus with 12 samples.

Results

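The genes described are 10 subunits of the Polycomb repressive complexes, chosen by gene name: every exon and intron entry of the deposited table whose transcript belongs, by GENCODE M1 gene name, to Ezh2, Eed, Suz12, Jarid2, Mtf2, Ring1, Rnf2, Cbx7, Pcgf6 or Kdm2b. They hold 84 transcripts and 168 entries, of 34079 genes with a matched name and 213131 entries in all. The table comes from mouse embryonic stem cells (mESCs; male XY line DTCM23/49, grown on gelatin with serum and LIF) that were exposed to 200 µM 4-thiouridine (4sU) for 15, 30 or 60 min. RNA that had taken up the label was biotinylated and pulled down (labeled RNA), and total RNA was taken beside it. Each labeling time has 2 labeled and 2 total libraries, 6 labeled and 6 total in all. The 2 replicates came from a single culture that was divided and passaged apart. The main fits took all libraries as independent, without a term for culture. Their p-values therefore measure the spread among libraries of those 2 cultures, not among independent cultures. No group was left unexposed to 4sU.

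Polycomb proteins keep developmental genes silent. Polycomb repressive complex 2 (PRC2) places methyl groups on lysine residue H3K27 of histone H3 through EZH2, which works only together with EED and SUZ12, while JARID2 and MTF2 help bring the complex to CpG-rich promoters. Polycomb repressive complex 1 (PRC1) attaches ubiquitin to histone H2A through the paired ligases RING1 and RNF2. Canonical PRC1 holds a CBX protein such as CBX7, which binds methylated H3K27, whereas variant PRC1 holds other partners, among them PCGF6 and the CpG-binding protein KDM2B. In mESCs these complexes occupy genes of later lineages.

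Values are the deposited abundances, which scale to nearly the same sum in each library (19988830 to 19992902) and are per unit length. The sources used here give the read depth only as an average over libraries, not for each. For a gene, exonic or intronic values were summed over its transcripts. The share of all abundance lying in introns was 6.52 to 7.40% in total RNA but ran from 6.98 to 14.8% in labeled RNA. The labeled libraries of 15 min replicate 2 (7.23%) and 60 min replicate 2 (6.98%) fell within the range of total RNA. The stem cell markers were present in each library: 9 of the 10 mESC markers were in the table and summed to 19585 to 32334 per library. Their levels differed, with Dppa5a at 5799 or more, Nanog at 2941 or more and Pou5f1 at 1045 or more. Lower were Sox2 at 279 to 600, Klf4 at 238 to 520 and Zfp42 at 116 to 225. The fibroblast list summed to at most 142, with Postn and Dcn at 0, Acta2 at 42.9 to 107 and Thy1 at 21.9 to 51.9. The endoderm, trophectoderm and mesoderm lists summed to at most 23.1. Of the neural list, Pax6 reached 179 and Tubb3 345 while Neurog2 was at 0.

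The 10 genes differed widely in level. Set by the median over a gene's transcripts, then the median over 12 libraries, Suz12 was highest at 1139, followed by Mtf2 at 1080, Jarid2 at 738, Pcgf6 at 498, Ezh2 at 436 and Eed at 304. Rnf2 stood at 153, Cbx7 at 64.4, Ring1 at 12.1 and Kdm2b at 8.98. Neighbors in this order had overlapping ranges over the libraries, such as Suz12 (655 to 1838) and Mtf2 (534 to 1512), except Eed (246 to 358) against Rnf2 (76.0 to 215) and Cbx7 (42.1 to 89.7) against Ring1 (8.86 to 16.4). Of the ligase pair, Rnf2 lay above Ring1 in each library. Kdm2b has 23 transcripts in the table, 3 with a mean under 1 and 20 with means of 6.33 to 93.9, so its median is low although its sum is not. By the sum over transcripts, which the comparisons below use, the order differed. Mean sums over 12 libraries were 16239 for Mtf2, 12804 for Jarid2, 7257 for Suz12 and 4697 for Ezh2. They were 607 for Eed, 513 for Cbx7, 486 for Pcgf6, 482 for Kdm2b, 147 for Rnf2 and 34.2 for Ring1. Isoforms share exons, and whether the number of isoforms affects these medians and sums was not tested.

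The main comparison asked which transcripts are over- or underrepresented in newly made RNA. In this assay, RNA that turns over slowly is by design underrepresented in the labeled fraction when both fractions are scaled to the same sum. Across 13977 genes tested with limma (log2 of the value plus 1, labeling time as a factor), exonic abundance differed for 16.8%, with 11.6% lower and 5.28% higher in labeled RNA at an adjusted p under 0.05. The median difference of all genes was -0.05 on the log2 scale. Of the 10 Polycomb genes, 4 were lower (Suz12, Kdm2b, Ezh2 and Pcgf6), none was higher, and their median was -0.37. In 9 of 10 the difference was below 0, against 7610 of the 13977 genes.

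**Figure D1:**
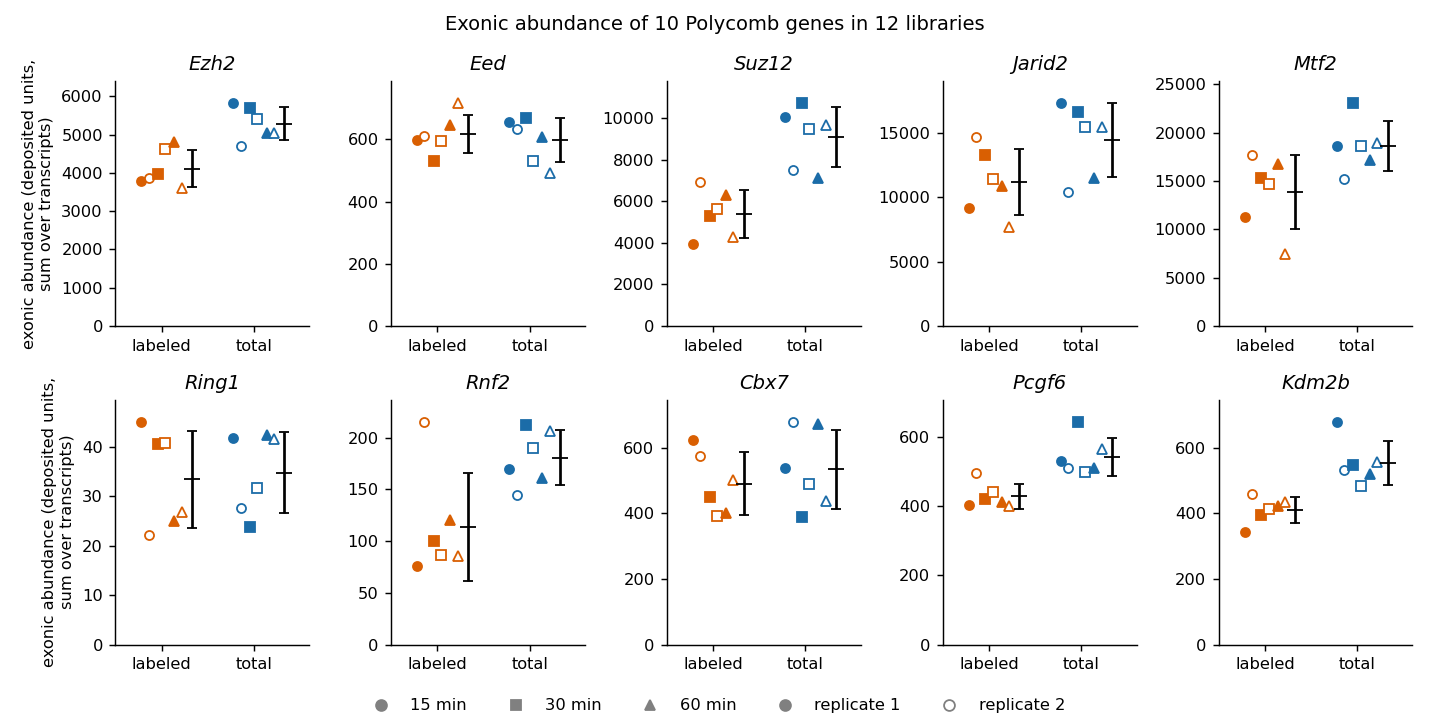
Exonic abundance (deposited units, linear axis from 0) of each gene in the 6 labeled and 6 total libraries. Shapes give the labeling time, filled and open symbols the replicate, and black bars the mean and SD over 6 libraries. The labeled and total points of Suz12, Pcgf6 and Kdm2b do not overlap, while those of Eed, Ring1 and Cbx7 lie at the same level.

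Ezh2 (chr6:47480273-47545340, minus strand; NCBIM37, as are all positions here) encodes the methyltransferase of PRC2. In labeled RNA its exonic abundance was 3795 and 3863 at 15 min, 3981 and 4634 at 30 min, and 4802 and 3595 at 60 min. In total RNA it was 5817 and 4704, 5686 and 5397, and 5041 and 5049 at the same times. Labeled RNA was below total RNA in 6 of 6 pairs of the same time and replicate number (the sources used here do not say that such libraries share a culture), and a single labeled library, 60 min replicate 1, reached above the lowest total value. The log2 difference was -0.37 (SE 0.10, adjusted p = 0.0273 by limma with Benjamini-Hochberg adjustment), that is 0.776 of the total level. The call was lost without labeled 15 min replicate 1 (adjusted p = 0.0558), labeled 30 min replicate 1 (0.0712), total 15 min replicate 1 (0.0738), total 30 min replicate 1 (0.0628) or total 30 min replicate 2 (0.0570).

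Suz12 (chr11:79806608-79847625, plus strand), the PRC2 subunit that holds the core together, showed the lowest exonic difference of the 10. Labeled values were 3940 and 6950 at 15 min, 5315 and 5625 at 30 min, and 6327 and 4307 at 60 min. Total values were 10056 and 7518, 10721 and 9496, and 7130 and 9695. Every labeled library lay below every total library, although the highest labeled value (6950) lay close to the lowest total value (7130). Suz12 was 0.589 times as abundant in labeled as in total RNA (log2 difference -0.76, SE 0.16, limma adjusted p = 0.0089). It stayed called without any single library (adjusted p of 0.00357 to 0.0294 by limma), but with the median over its transcripts in place of the sum it stood at -0.65 (adjusted p = 0.0541).

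Eed (chr7:97103166-97129493, minus strand), the core subunit that reads methylated H3K27, behaved unlike its core partners. Its labeled values ran from 532 to 716 with a median of 604, and its total values from 492 to 669 with a median of 620. The groups overlapped fully and labeled RNA was lower in 3 of 6 pairs. The log2 difference was 0.05 (SE 0.11, limma adjusted p = 0.811). The other 3 core genes of the wider list were mixed: the histone chaperone subunit Rbbp4 fell by 0.76 on the log2 scale (adjusted p = 0.0093 by limma), Rbbp7 was at -0.22 and the EZH2 paralog Ezh1 at 0.13, neither called.

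Jarid2 (chr13:44824843-45017012, plus strand) and Mtf2 (chr5:108494693-108538023, plus strand) are the accessory subunits. Jarid2 ran from 7707 to 14647 in labeled RNA (median 11149) and from 10364 to 17273 in total RNA (median 15428). Mtf2 ran from 7459 to 17648 (median 15016) against 15218 to 23042 (median 18636). For both, labeled RNA was lower in 5 of 6 pairs and the groups overlapped, the exception being 15 min replicate 2. The log2 differences were -0.37 (SE 0.17, adjusted p = 0.140) for Jarid2 and -0.47 (SE 0.19, adjusted p = 0.108) for Mtf2 by limma, so neither was called. Without the labeled library of 15 min replicate 2, Mtf2 stood at -0.58 (adjusted p = 0.0497) and Jarid2 at -0.48 (adjusted p = 0.0507), where 15.1% of all genes were called lower. Mtf2 was also called without the labeled library of 60 min replicate 1 (adjusted p = 0.0422). Of 5 other accessory genes tested, Aebp2, which binds the PRC2 core, was lower in labeled RNA (-0.42, limma adjusted p = 0.0410), and the least lowered was Lcorl at -0.05.

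Rnf2 (chr1:153316536-153347953, minus strand), the main H2A ligase of mESCs, gave labeled values of 76.0 and 215 at 15 min, 99.8 and 86.5 at 30 min, and 120 and 85.4 at 60 min. Total values were 169 and 145, 213 and 190, and 161 and 207. The single library of 15 min replicate 2 was the highest of all 12, and the other 5 labeled libraries lay below every total library. With all libraries the log2 difference was -0.74 (SE 0.24, limma adjusted p = 0.0520), and without that library it was -0.99 (adjusted p = 0.00159). Of the 12 fits that each left out 1 library, this was the only 1 in which Rnf2 was called, the limma adjusted p reaching up to 0.130. In the same fit 15.1% of all genes were called lower. The labeled library of 15 min replicate 2 also had an intronic share like that of total RNA. What sets this library apart was not tested.

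Ring1 (chr17:34157737-34161625, minus strand), the paralog of Rnf2, was near the lower limit of the test at 22.2 to 45.1 in labeled RNA (median 33.8) and 23.8 to 42.4 in total RNA (median 36.6). The groups overlapped fully, with a log2 difference of -0.07 (SE 0.25, adjusted p = 0.867 by limma). Its SE was the widest of the 10.

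Cbx7 (chr15:79746237-79801549, minus strand), the chromodomain subunit of canonical PRC1 in mESCs, ran from 391 to 625 in labeled RNA (median 477) and from 388 to 680 in total RNA (median 515). The groups overlapped and labeled RNA was lower in 3 of 6 pairs (log2 difference -0.11, SE 0.14, limma adjusted p = 0.604). Of the 9 other canonical PRC1 genes tested, 1 was called, Pcgf2 (-0.46, limma adjusted p = 0.0154), the Polycomb ring finger protein of canonical PRC1. Its paralog Bmi1 had the lowest difference of that list, -0.92 (adjusted p = 0.0518), and Cbx2 the highest, 0.26.

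Pcgf6 (chr19:47108109-47125380, minus strand) defines a variant PRC1 that binds germline genes in mESCs. Labeled values were 404 and 497 at 15 min, 421 and 440 at 30 min, and 413 and 400 at 60 min. Total values were 531 and 511, 645 and 499, and 510 and 566. The groups did not overlap, but the highest labeled (497) lay just under the lowest total value (499). The log2 difference was -0.34 (SE 0.10, limma adjusted p = 0.0437). This call was close to the threshold: it stayed in 2 of the 12 fits that each left out 1 library, those without labeled 15 min replicate 2 (adjusted p = 0.0176) and labeled 60 min replicate 1 (0.0469), and in the other fits reached up to 0.103.

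Kdm2b (chr5:123320677-123465089, minus strand) links a variant PRC1 to unmethylated CpG islands through its CXXC domain. Its labeled values were 344 and 459 at 15 min, 395 and 412 at 30 min, and 424 and 434 at 60 min. Its total values were 680 and 533, 547 and 484, and 521 and 557. Again the groups did not overlap, and the log2 difference was -0.43 (SE 0.11, limma adjusted p = 0.0239). The call of Kdm2b was lost without labeled 30 min replicate 1 (adjusted p = 0.0519), total 15 min replicate 1 (0.0611) or total 30 min replicate 1 (0.0557). Groups did not overlap, with labeled RNA below total RNA, for 3 of the 10 genes, against 7.28% of all genes. Of 21 other variant PRC1 genes tested, 6 were lower in labeled RNA and none higher, against 11.6% lower and 5.28% higher over all genes. They were the casein kinase subunit Csnk2a1 (-1.05, the lowest of the list), Tfdp1 (-0.68), Dcaf7 (-0.65), Cbx3 (-0.58), Pcgf3 (-0.53) and the deubiquitinase Usp7 (-0.53), while Pcgf1 had the highest difference at 0.12.

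**Figure D2:**
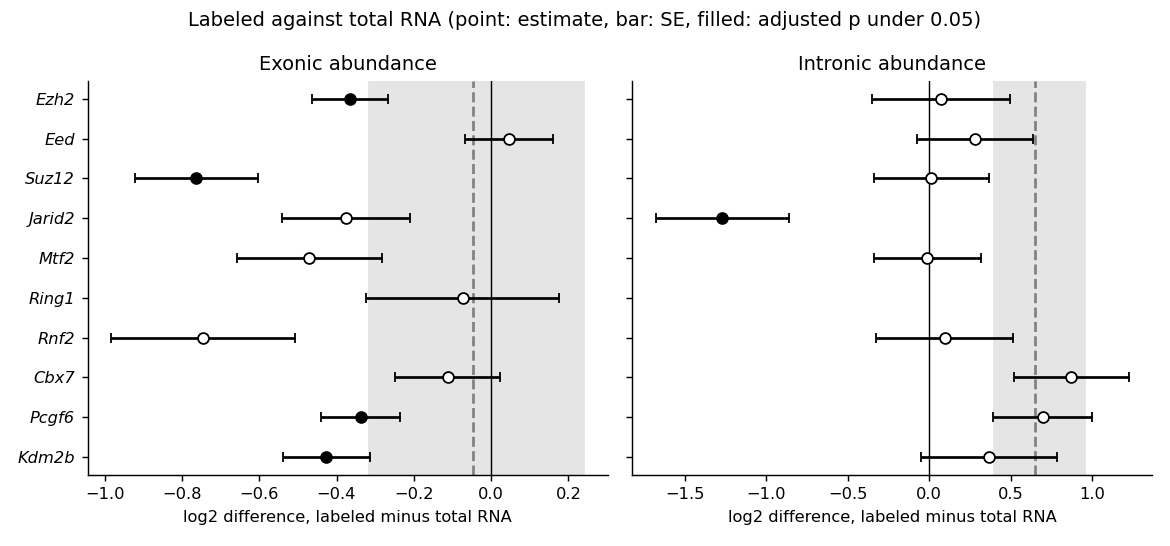
Log2 difference of labeled minus total RNA for the exonic (left) and intronic (right) abundance of each gene, with SE bars and filled points where the limma adjusted p was under 0.05. Gray bands give the middle 50% of all genes tested and dashed lines their median (-0.05 exonic, 0.65 intronic). Suz12, Kdm2b, Ezh2 and Pcgf6 are called in exons and Jarid2 in introns.

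Of the H2A deubiquitinase complex (PR-DUB), which removes the mark that PRC1 places, 9 of 10 genes were tested and 2 were lower in labeled RNA, Mbd6 (-0.69, the lowest) and Hcfc1 (-0.64), with Foxk1 highest at 0.32. None of the 3 H3K27 demethylase genes was called (Uty lowest at -0.62, Kdm6b highest at -0.11). Over all lists beyond the 10, 50 of 57 genes were tested, 11 were lower and 0 higher, and their median was -0.25, against 11.6% lower and a median of -0.05 over all genes.

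Labeling time made no difference that the test could call. Between 60 and 15 min none of 13977 genes was called by limma in labeled RNA, in total RNA or in the difference between them (0.0% in each), with 178, 108 and 162 genes at an unadjusted p under 0.05 and none of the 10 among them. The change from 15 to 60 min in labeled RNA ran from -0.42 (Cbx7, SE 0.26) to 0.17 (Eed, SE 0.20) on the log2 scale. In total RNA it ran from -0.24 (Eed) to 0.29 (Ring1). Taken at each time alone, with 2 against 2 libraries, Suz12 differed by -0.73 at 15 min, -0.88 at 30 min and -0.67 at 60 min (SE 0.30 each), Ezh2 by -0.45, -0.37 and -0.28, and Kdm2b by -0.60, -0.35 and -0.33. No single time gave a call for any of the 10.

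**Figure D3:**
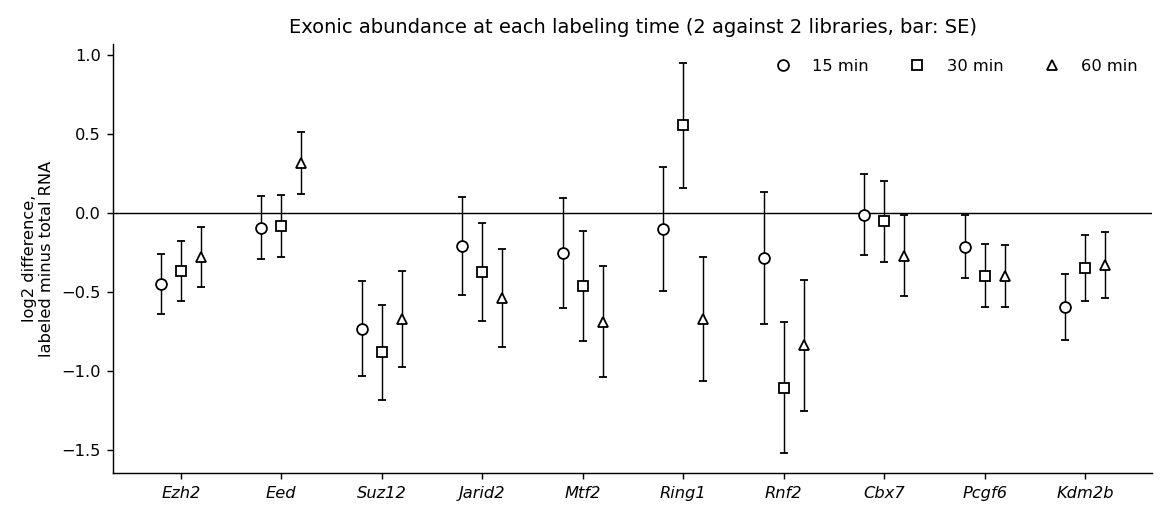
Log2 difference of labeled minus total exonic abundance at 15, 30 and 60 min (circles, squares, triangles), each from 2 against 2 libraries with SE bars. Suz12 lies below 0 at each time, between -0.88 and -0.67, while Eed and Ring1 change sign between times.

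The study inferred rates with the INSPEcT package, which was not run here. Simple ratios were defined in its place: synthesis as labeled exonic abundance per hour, degradation as synthesis over exonic minus intronic total abundance, and processing as synthesis over intronic total abundance. Since labeled and total RNA are scaled to the same sum, these are relative values. At 60 min the degradation value of Suz12 was 0.700 per hour (1.02 and 0.479 in the replicates), of Mtf2 0.701 (1.03 and 0.409) and of Ezh2 0.897 (1.03 and 0.766), against a median of 1.11 over 10857 genes. At that time Eed stood highest (1.26 and 1.82 in the replicates) and Rnf2 lowest at 0.638 (0.882 and 0.460). The highest at 30 min was Ring1 at 3.27 (4.19 and 2.69). At 15 min it was Jarid2 at 5.15, but with 2.49 and 15.5 in the replicates, followed by Cbx7 at 5.08 (6.62 and 4.06). For Jarid2 in replicate 2, an intronic abundance of 6578 was subtracted from an exonic abundance of 10364. The median of the 10 was 0.842 at 60 min, 1.72 at 30 min and 3.87 at 15 min. The median of all genes moved likewise, from 4.55 at 15 min, since labeled abundance hardly changed with time while the hours divided into it did.

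Processing values set the genes apart more than degradation values. At 60 min Pcgf6 had 19.5 per hour (17.7 and 21.7 in the replicates), Mtf2 15.7 (20.5 and 10.3) and Ezh2 11.6, against 5.68 for the median gene. Cbx7 at 4.17 and Kdm2b at 3.85 lay below it. Pcgf6 and Mtf2 lay above 84.0% or more of genes at each of the 3 times. Jarid2 stood at 2.34 (1.70 and 4.99 in the replicates). Taking its introns from only the 4 transcripts without an intronic stretch described below, with exons still summed over all 16, gave 70.7. That value sets the exons of 16 transcripts against the introns of 4, so it cannot be compared with the median gene.

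Intronic values, taken here as a measure of RNA not yet spliced, were higher in labeled RNA for most genes. Of 14780 genes 30.2% were higher and 0.21% lower by limma, and the median log2 difference was 0.65. Ring1, at 1.34 to 7.22, was below the filter, which left 9 of the 10. None of these was higher and 1, Jarid2, was lower, while their median was 0.09. Cbx7 had the highest value: 410 and 113 at 15 min, 259 and 291 at 30 min, and 420 and 112 at 60 min in labeled RNA, against 162 and 111, 140 and 146, and 105 and 112 in total RNA. Labeled RNA was above total RNA in each of the 6 pairs, and the groups overlapped only through both replicate 2 libraries of 15 and 60 min. The log2 difference of Cbx7 was 0.87 (SE 0.35, limma adjusted p = 0.0723). Pcgf6 followed at 0.70 (adjusted p = 0.0927).

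The intronic values of the PRC2 genes Ezh2, Suz12 and Mtf2 spread widely among the labeled libraries. Suz12 introns were 1478 and 373, 668 and 970, and 1573 and 386 in labeled RNA at 15, 30 and 60 min, against 685 to 935 in total RNA. Both replicate 1 libraries of 15 and 60 min were above, and both replicate 2 libraries below, every total library. The same order held for Ezh2 and Mtf2. Their differences were 0.01 (Suz12), 0.07 (Ezh2) and -0.01 (Mtf2), with SE of 0.33 to 0.43. Relative to the shift of all genes, that is with the medians of all libraries set equal, Suz12 was at -0.69 (limma adjusted p = 0.0264) and Mtf2 at -0.71 (adjusted p = 0.0139). Ezh2 at -0.63 (adjusted p = 0.0861), Cbx7 at 0.17 and Pcgf6 at -0.01 were not called. In that fit 6.74% of all genes were called lower and 5.56% higher.

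As a share of its exonic abundance, intronic abundance of Pcgf6 was 4.45 to 14.6% in labeled RNA (median 8.81%) and 3.26 to 4.57% in total RNA (median 4.23%), higher in labeled RNA in each of the 6 pairs. This ratio was called (log2 difference 1.03, SE 0.34, limma adjusted p = 0.0371), where 26.0% of 10228 genes were called higher. It was the call of 1 gene of 9, and it stayed in 2 of the 12 fits that each left out 1 library, those without labeled 15 min replicate 2 (adjusted p = 0.00677) and labeled 60 min replicate 2 (0.0135). Kdm2b had the widest labeled range, 14.3 to 119%, against 18.9 to 32.2% in total RNA. Without the labeled library of 15 min replicate 2, 6 of the 9 genes were called higher, as were 60.7% of all genes.

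Jarid2 introns went the other way. In labeled RNA they were 2079 and 537 at 15 min, 923 and 969 at 30 min, and 1203 and 2499 at 60 min. In total RNA they were 2571 and 6578, 1484 and 2402, and 6384 and 1545. The total libraries of 15 min replicate 2 and 60 min replicate 1 stood far above the rest, and labeled RNA was lower in 5 of 6 pairs. The log2 difference was -1.27 (SE 0.41, limma adjusted p = 0.0312), the 29th lowest of 14780 genes. The call ended without total 15 min replicate 2 (-1.02, adjusted p = 0.0862), total 60 min replicate 1 (-1.07, 0.0785), total 30 min replicate 2 (-1.22, 0.0622) or labeled 30 min replicate 2 (-1.31, 0.0530).

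The intronic signal of Jarid2 depended on the transcript. The 12 transcripts whose introns cover chr13:44943791-44969651 had means of 116 to 710 in total RNA and 49.8 to 203 in labeled RNA. The other 4 (Jarid2-009, Jarid2-011, Jarid2-013 and Jarid2-015), whose introns leave that stretch out, had 3.44 to 43.4 in total and 3.48 to 38.9 in labeled RNA. No other stretch of intron over 1 kb parted the high from the low transcripts. Summed, the 4 transcripts gave 115 ± 98.0 in labeled and 130 ± 18.6 in total RNA (SD, n = 6 each). The 12 with that stretch gave 1254 ± 734 in labeled and 3364 ± 2357 in total RNA. Whether these values come from unspliced Jarid2 RNA was not tested. Taking Jarid2 introns from the 4 without it alone, chosen after the values were seen, the log2 difference was -0.60 (SE 0.46, limma adjusted p = 0.302).

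Inside that stretch of 25861 bases lies a CpG-rich block of 537 bases at chr13:44964938-44965474, with 46 of the 201 CpG dinucleotides of the whole stretch. Its GC content is 57.0%, against 40.2% overall. The annotation used here marks nothing at this place within the intron. The block was located by its CpG count, the highest among tiles of 500 bases in the stretch, not by signal measured within the intron. Copies were searched for afterwards, and the block is shown because 7 other genes carry close copies of it in an intron. The first line gives 300 bases of the Jarid2 block, chr13:44965011-44965310 on the plus strand, with the 120 bases compared in capitals. The other lines give the matching 120 bases of 4 introns that carry a copy, with letters that differ from Jarid2 in capitals. They are Arhgap21 (chr2:20821528-20821647, minus strand), Sspn (chr6:145881362-145881481, plus strand), Filip1l (chr16:57391412-57391531, plus strand) and Kcnip1 (chr11:33654926-33655045, plus strand), all NCBIM37.
Jarid2 intron: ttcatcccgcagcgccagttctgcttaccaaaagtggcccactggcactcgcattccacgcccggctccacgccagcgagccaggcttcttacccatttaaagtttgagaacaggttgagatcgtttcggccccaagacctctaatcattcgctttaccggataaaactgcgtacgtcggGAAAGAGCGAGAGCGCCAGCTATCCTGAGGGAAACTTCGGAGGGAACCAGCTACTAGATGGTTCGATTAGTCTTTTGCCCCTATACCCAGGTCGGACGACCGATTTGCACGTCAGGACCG
Arhgap21 intron: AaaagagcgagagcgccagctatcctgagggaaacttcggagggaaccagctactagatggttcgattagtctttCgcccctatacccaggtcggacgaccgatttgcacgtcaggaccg
Sspn intron: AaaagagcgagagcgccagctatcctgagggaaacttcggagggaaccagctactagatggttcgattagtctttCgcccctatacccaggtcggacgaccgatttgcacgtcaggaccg
Filip1l intron: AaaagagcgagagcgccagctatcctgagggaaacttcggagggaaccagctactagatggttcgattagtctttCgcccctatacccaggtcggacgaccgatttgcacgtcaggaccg
Kcnip1 intron: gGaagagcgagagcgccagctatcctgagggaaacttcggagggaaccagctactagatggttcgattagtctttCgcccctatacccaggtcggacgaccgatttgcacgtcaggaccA

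The 120 bases differed from Jarid2 at 2 positions in Arhgap21, Sspn and Filip1l and at 3 in Kcnip1. At 90% identity over 150 bases or more, 17 copies of the block were found elsewhere in the genome. The 7 genes with a copy in an intron and intronic values were Sspn, Kcnip1, Tmtc2, Arhgap21, Filip1l, 2610528E23Rik and Spata5, of which Filip1l and 2610528E23Rik share the same copy. Labeled RNA was below total RNA in the introns of all 7, and 6 were called lower by limma, with a median log2 difference of -1.47. Among all genes 4.96% were below 0 and 0.21% were called lower.

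Arhgap21 followed Jarid2 library by library. Its introns averaged 3246 in total and 1083 in labeled RNA, with a difference of -1.47 (SE 0.44, limma adjusted p = 0.0231). The correlation of log2 intronic abundance with that of Jarid2 over 12 libraries was 0.97 for Arhgap21, 0.96 for Filip1l and 2610528E23Rik, 0.91 for Kcnip1 and Tmtc2, and 0.90 for Sspn and Spata5, against a median of -0.26 over all genes tested. It was above 0.9 in 26 genes, the 7 with a copy and 19 in which the search found none, and the highest values, 0.98 for Ica1 and 0.97 for Wdr92, were among the latter. All these values come from the same 12 libraries. The block was not compared with repeat or RNA sequence collections, nor with ribosomal RNA, so what this sequence is was not determined. Its part in the intronic values was not tested beyond these comparisons.

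**Figure D4:**
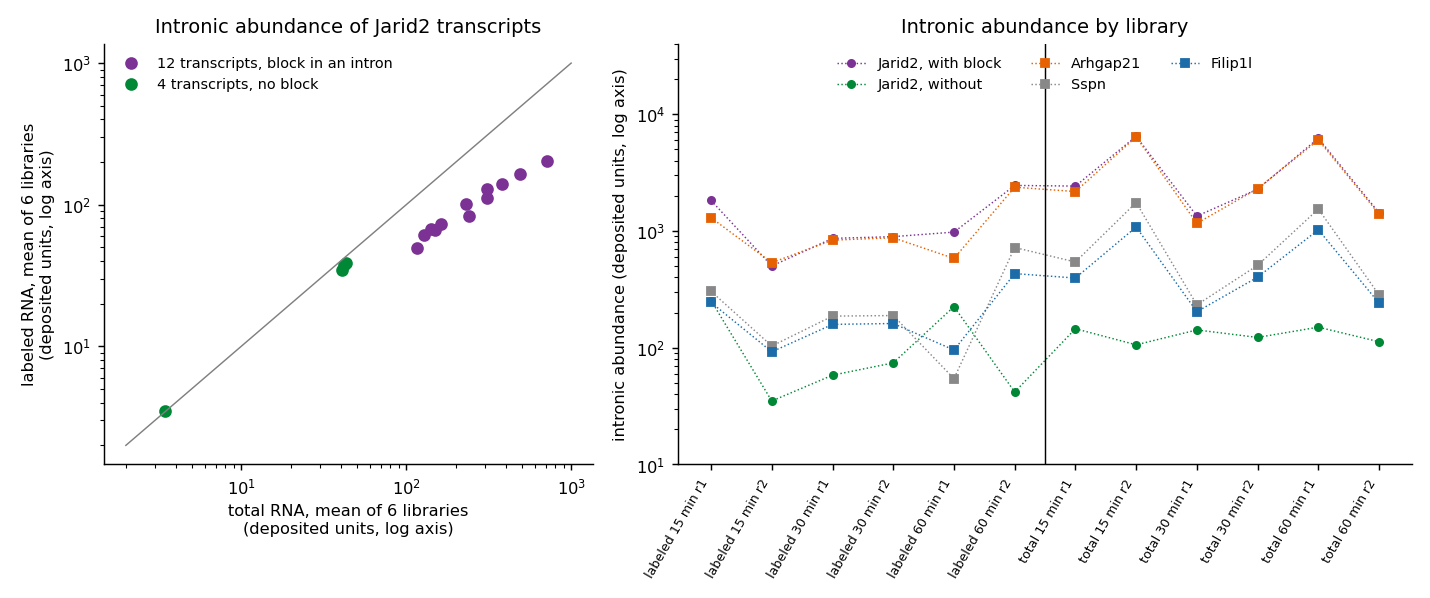
Left, mean intronic abundance of each of 16 Jarid2 transcripts in total and labeled RNA (log axes, gray line at equality). Purple points, which hold the block, lie below the line at 116 to 710 in total RNA, and green points lie near it. Right, intronic abundance per library (log axis) of Jarid2 with and without the block and of 3 genes with a copy of it, where dotted lines only join points of one gene. The block-holding genes peak together in total 15 min replicate 2 and total 60 min replicate 1, and Jarid2 without the block stays between 106 and 150 in total RNA.

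At the level of single transcripts, 65 of the 84 passed the filter and 15 were called, all lower in labeled RNA, where 12.1% of 45495 transcripts were called lower and 5.24% higher. Their median difference was -0.39, against -0.09 for all transcripts. They fell on 6 genes: 6 of 12 transcripts of Ezh2, 4 of 6 of Suz12, 2 of 16 of Jarid2 and 1 each of Mtf2, Kdm2b and Pcgf6. Pcgf6 and Rnf2 are each represented by a single transcript. Since isoforms of a gene share exons, these are not independent measurements.

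Suz12-003, a nonsense-mediated decay isoform, had 669 ± 107 in labeled and 1242 ± 175 in total RNA (SD, n = 6 each), a log2 difference of -0.90 (SE 0.14, limma adjusted p = 0.0026). The coding isoform Suz12-001 had 1395 ± 253 against 2416 ± 293 (-0.80), and Suz12-201 had 1186 ± 268 against 2157 ± 289 (-0.88). The other decay isoform, Suz12-002, had 1089 ± 315 against 1627 ± 398 (-0.60, limma adjusted p = 0.0808), with overlapping groups, and was not called. The share of Suz12-001 in the sum was 24.5 to 29.5% in labeled and 24.5 to 29.2% in total RNA.

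Ezh2-006, annotated as a nonsense-mediated decay target, had the highest value of the Ezh2 isoforms, 736 ± 77.4 in labeled and 961 ± 112 in total RNA (-0.38, limma adjusted p = 0.0361). The coding isoform Ezh2-001 had 503 ± 51.3 against 674 ± 43.9 (-0.43, adjusted p = 0.0152 by limma). Mtf2-013 stood at 1239 ± 320 against 1832 ± 179 (-0.61), while the gene as a whole was not called. Labeled and total values did not overlap for 8 of the 65 transcripts with labeled RNA lower, against 7.62% of all transcripts. They belonged to Ezh2, Suz12, Mtf2 and Pcgf6.

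**Figure D5:**
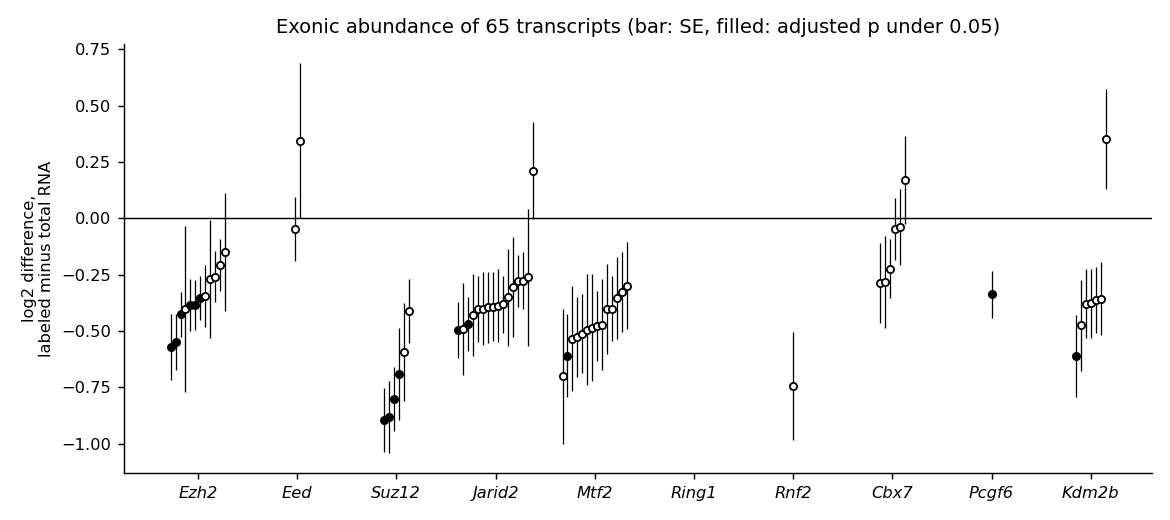
Log2 difference of labeled minus total exonic abundance for the 65 transcripts that passed the filter, grouped by gene, with SE bars and filled points where the limma adjusted p was under 0.05. Points of Suz12 lie between -0.90 and -0.41, all 12 of Ezh2 and all 14 of Mtf2 lie below 0, and Eed, Jarid2, Cbx7 and Kdm2b each have a transcript above 0.

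Shares of isoforms varied more for some genes than others. Eed-001, the coding isoform, held 56.8 to 85.3% of the Eed sum in labeled and 63.5 to 88.8% in total RNA. Ring1-001 held 38.1 to 64.0% and 44.5 to 57.1%, the rest lying in isoforms with a retained intron. Of Cbx7 all 6 isoforms are coding, and Cbx7-002 led with 27.7 to 34.9% in labeled and 25.5 to 31.7% in total RNA. No isoform of Eed or Cbx7 was called between labeled and total RNA, and those of Ring1 were below the filter.

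Across the 12 libraries, the genes most like the mean profile of the 10 were Psmd2, Gopc and Api5, with Pearson r of 0.98, 0.97 and 0.97 over standardized log2 exonic values, out of 13904 genes outside the lists. Each of the 10 was also set against the mean of the other 9. The r was 0.92 for Suz12, 0.87 for Pcgf6, 0.86 for Kdm2b, 0.81 for Ezh2, 0.80 for Rnf2, 0.75 for Mtf2 and 0.74 for Jarid2, but -0.10 for Cbx7, -0.16 for Ring1 and -0.26 for Eed. These are descriptions of libraries that differ first of all between labeled and total RNA.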

How the data were processed

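Labeled and total RNA of 12 mouse embryonic stem cell libraries (3 labeling times, 2 replicates each) were sequenced as 100-nt single-end reads by the study. The authors removed ribosomal reads with STAR 2.5.0, aligned the rest to exonic and intronic sequence and quantified it with RSEM. The deposited values are a signal per transcript and annotation class, scaled by the authors to nearly equal sums and per length, not counts; the submitters' notes name mm10. Missing values were taken as 0, and 0 columns of per-sample values went unused. Transcripts were matched by identifier to GENCODE M1 (NCBIM37). Summed gene values, as log2(value + 1), went into limma (version 3.58.1, R 4.3.3), with filters of a mean of 20 (exonic) or 5 (intronic) and Benjamini-Hochberg adjustment over all features at 0.05. The fits were tested on data made with known log2 differences of 2, larger than any of the 10 genes showed. Recovery of smaller differences was not tested. Fold changes are on the log2(value + 1) scale, which understates those of low genes. Alternatives were other pseudocounts and filters, median centring, the trend setting, single times, coding transcripts, left-out libraries and a replicate block. Count tests planned for counts were not run. Copies of the Jarid2 block were found with blastn 2.17.0. Members and lists were chosen with earlier results of these data known. All 10 genes are named; of the other lists, the highest and lowest difference and every gene called in the exonic comparison.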

Additional observations from a re-analysis of the deposited data

Results flagged for a closer look

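Among 40 groups of 6 libraries (exonic and intronic abundance of each of the 10 genes in labeled and in total RNA), 2 held a library set apart from the others by a wide gap on Dixon's test; chance gives about 1 in 20 such groups. Rnf2 exonic abundance was 215 in the labeled library of 15 min replicate 2, and the gap to the next library was 0.683 of the range. Kdm2b exonic abundance was 680 in the total library of 15 min replicate 1, with a gap of 0.630 of the range.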

How the results depend on the processing

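Of the 10 genes, 4 were called in exons. The count was 0 at each labeling time alone, 2 with the median over transcripts, 1 with the replicate block, and 0 to 6 when a replicate number or a library was left out. It was within 1.5 times of 4 under the other pseudocounts, filters, centring and trend setting, and with coding transcripts only. Without replicate 1 or 2 none was called, and without total 15 min replicate 1, total 30 min replicate 1 or labeled 30 min replicate 1 the count was 1. In introns 1 of 9 was called: 0 at each time alone and without the block-holding Jarid2 transcripts, 3 with median centring, 3 with the replicate block, and 0 to 3 with libraries left out. Median centring turned Suz12 introns to -0.69, since all genes shift by 0.65. The intronic to exonic ratio had 1 call: 0 at each time alone, with median centring and with no filter, 2 with the replicate block, and 0 to 6 with libraries left out. Of 65 transcripts 15 were called: 9 with no filter, 5 with the replicate block, and 0 to 27 with libraries left out. The sources used here do not say that a replicate number joins labeled and total libraries, and the deviations of same-numbered libraries in exons correlated at -0.07 at 15 min, 0.05 at 30 min and -0.19 at 60 min. With the replicate block the call in exons was that of Suz12 (5.83% of all genes lower), Cbx7 and Pcgf6 joined Jarid2 in introns (39.3% higher), Cbx7 joined Pcgf6 in ratios (33.9% higher), 6.10% of all transcripts were lower, and 6 of the 50 other Polycomb genes were lower, in place of 11. For 60 against 15 min the counts were 0 throughout, the replicate block included; without one replicate number these fits had no residual spread to test. The median degradation value of 2.09 per hour, averaged over times, was 3.87 at 15 min and 0.842 at 60 min alone. Differences of the 10 genes not called changed sign in 12 exonic, 34 intronic and 8 ratio refits. Where no cause is stated it was not tested. Depth per library is unknown, and Ring1 had the widest SE of the 10 in exons (0.25). The median over transcripts and the Jarid2 alternative were chosen after seeing the data. The values are not counts, so edgeR and DESeq2 were not run.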
